A study of Mus musculus with 2 samples.

Results

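The genes described here are 10 secreted regulators of bone morphogenetic protein (BMP) signalling, chosen by name from the 28380 genes listed in the count tables. There are 6 ligands, Bmp2, Bmp3, Bmp4, Bmp5, Bmp6 and Bmp7, and 4 antagonists or modulators, Grem1, Nog, Chrdl1 and Bmper. All 10 were detected in both libraries, with totals between 1022 RSEC-adjusted molecules (Bmper in Dach1OE) and 19778 (Chrdl1 in Control). They were followed over endothelial, stromal, osteoblast and chondrocyte cells, gated on marker genes that include none of the 10.

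BMPs are secreted dimers of the TGF-β superfamily that bind paired type I and type II serine/threonine kinase receptors, after which SMAD1, SMAD5 and SMAD9 are phosphorylated and act on genes such as those of the Id family. Antagonists bind the ligands outside the cell and keep them from the receptors. In long bones the pathway is known for its parts in chondrocyte maturation in the growth plate, in osteoblast differentiation and in vessel growth, and BMP6 made by sinusoidal vessels is known as a regulator of iron balance in the liver.

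Single-cell RNA sequencing (scRNA-seq) was performed on non-haematopoietic cells from femur and tibia of C57BL/6 mice aged 30 postnatal days. The epiphysis had been taken off, and cells bound by CD45 or CD117 microbeads had been depleted. The Control library had the genotype Dach1OE +/f, in which the Dach1 transgene has no Cre to activate it, and the Dach1OE library had the genotype Apj CreERT2 - Dach1OE +/f. The Cre is driven by Aplnr (Apj), a gene of capillary endothelial cells (ECs), so the transgene was switched on in Aplnr-expressing ECs and their progeny. Both groups were given tamoxifen, both held male and female animals, and each library pooled 2 mice per the methods. The comparison asks how these genes differ between cell types and between bones with and without Dach1 overexpression in ECs.

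With 1 library per group there was no replicate library and no test. Levels are CPM, in which the unique molecular identifiers (UMIs) of a gene are divided by all UMIs of the cell type in that library and scaled to a common total, with exact Poisson 95% intervals in brackets. Ratios are log2 of Dach1OE over Control CPM with exact binomial 95% intervals. All intervals cover counting error only. A gene was called past 2-fold where its ratio exceeded that size with at least 20 UMIs over both libraries. CPM here are not per length, so levels of different genes are not ranked against each other.

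Of 28720 Control and 32028 Dach1OE cells listed, 26466 and 29317 passed the filters, with a median of 3793.5 and 4055 UMIs per cell. The cell labels of 879 cells occur in both libraries. The endothelial gate held 9979 Control and 10413 Dach1OE cells, the stromal gate 3254 and 1540, the osteoblast gate 2466 and 3101 and the chondrocyte gate 4540 and 6377. Median scores for their own markers were 0.661, 0.432, 0.463 and 0.888 in these classes, and no other class score had a median above 0.137 in them. Gated names mean cells like that type. The gate on Ucma, Sfrp5, Scrg1, Pthlh and Matn1 and the osteoblast gate that includes Notum and Tnn enriched too few of their markers to carry a type name and are called Ucma-gated chondrocytes and Notum/Tnn-gated osteoblasts. Dach1 itself, the check of the labels, had 5.59 CPM in Control ECs and 188 CPM in Dach1OE ECs, a log2 ratio of 5.07 (4.86 to 5.28). Its level in haematopoietic cells was 19.9 and 20.3 CPM.

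Bmp4, a ligand that opens the pathway through the type I receptors, was higher in ECs of the Dach1OE library. It was read at 30.8 CPM (29.0 to 32.7) in Control ECs and at 62.3 CPM (59.7 to 64.9) in Dach1OE ECs. The log2 ratio was 1.02 (0.91 to 1.12), which made Bmp4 the 1 member past 2-fold in that direction, where 3.44% of the 16619 genes tested in ECs were. Bmp2, a ligand of the same subgroup and an osteogenic factor, went the other way. It had 22.9 CPM (21.3 to 24.5) in Control ECs and 10.7 CPM (9.64 to 11.8) in Dach1OE ECs, a log2 ratio of −1.10 (−1.28 to −0.92). It was the 1 member of 10 past 2-fold downward, where 3.3% of the genes tested were. The intervals of the libraries did not overlap for either ligand.

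Bmp4 lies on the minus strand of GRCm38 chromosome 14 at chr14:46383520-46390669, and Bmp2 on the plus strand at chr2:133552159-133562885. The annotation places 2 genes of the opposite strand, Gm15217 and the antisense RNA Gm15222, over Bmp4. Whether strand was used in counting is not stated, so reads of Bmp4 and of these genes may not be separated. The same limit applies to Bmp6, overlapped by the antisense RNA 4930579J19Rik and by Txndc5, and to Bmp5, overlapped by the antisense RNA Gm26903. Gm47723 also overlaps Bmp5 but lies on its strand, so counting by strand would not separate the pair. The 250 bases upstream of the RefSeq start (GRCm38.p6) are shown for Bmp4 and Grem1. Bmp4 is the ligand past 2-fold upward in ECs, and Grem1 the antagonist most confined to stromal cells in the read counts below. Capitals mark GGGCGG, the GC box, and GGCGCC, a GC-rich SMAD element, on either strand.
Bmp4, chr14:46390670-46390919, minus strand: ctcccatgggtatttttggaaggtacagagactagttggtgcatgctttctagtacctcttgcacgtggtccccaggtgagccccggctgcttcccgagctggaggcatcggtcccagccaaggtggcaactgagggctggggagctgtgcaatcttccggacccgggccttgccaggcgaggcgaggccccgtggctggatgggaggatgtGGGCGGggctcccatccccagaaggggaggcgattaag
Grem1, chr2:113758649-113758898, minus strand: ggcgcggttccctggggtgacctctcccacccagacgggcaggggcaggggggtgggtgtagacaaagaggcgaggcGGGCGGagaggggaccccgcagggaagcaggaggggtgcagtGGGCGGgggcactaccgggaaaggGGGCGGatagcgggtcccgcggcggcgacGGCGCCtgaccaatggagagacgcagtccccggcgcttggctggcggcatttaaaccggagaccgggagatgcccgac
The Bmp4 window holds 1 GC box and no GGCGCC, while the Grem1 window holds 3 GC boxes and 1 GGCGCC, which do not overlap. Of 32851 windows of this length, 32.7% hold GGGCGG and 9.59% hold GGCGCC. Searches for the CCAAT box (its name being its letters), the TATA box TATAAA and the E-box CACGTG found 1 E-box in the Bmp4 window, as in 6.02% of all windows, and 1 CCAAT box in the Grem1 window, as in 33.8%, while 12.4% of all windows hold TATAAA. RefSeq windows were matched for 5 of the 10 members, and Bmp2 is not among them. The motif matches describe letters and not binding.

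The Bmp4 difference was largest in sinusoidal ECs, the vessels of the marrow cavity, with 30.0 CPM (27.8 to 32.4) in Control and 90.5 CPM (85.8 to 95.3) in Dach1OE. That is a log2 ratio of 1.59 (1.46 to 1.73), where 2.97% of genes tested in this subtype were past 2-fold upward. In metaphyseal ECs Bmp4 had 17.2 CPM (13.6 to 21.4) and 35.2 CPM (30.9 to 40.0), a ratio of 1.04 (0.67 to 1.42) beside a background of 2.46%. Proliferating ECs gave 12.9 and 32.4 CPM, a ratio of 1.33 (0.76 to 1.93) beside a background of 2.55%, and this interval holds the sinusoidal ratio. ECs that no subtype gate took gave 27.6 and 61.2 CPM, a ratio of 1.15 (0.76 to 1.55) beside 3.06%. Arterial ECs did not share the difference, with 20.9 CPM and 21.8 CPM and a ratio of 0.06 (−0.61 to 0.78).

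Remodelling ECs (rECs), the post-arterial capillary cells marked by C1qtnf9, Fmo2 and Aqp7, held the highest Bmp4 of all EC subtypes in both libraries. They had 183 CPM (158 to 212) in the Control library and 126 CPM (105 to 152) in Dach1OE, a ratio of −0.54 (−0.88 to −0.19). Cells assigned by Xist had the same direction, at −0.57 (−1.11 to −0.04), while cells assigned by Y-linked genes gave 0.12 (−0.90 to 1.13), an interval that spans 0, from 19 and 18 UMIs. Sinusoidal ECs came next among the named subtypes in Control and in Dach1OE, and the intervals of the pair did not overlap in either library.

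Shares of cells gave the same order for sinusoidal ECs. With every cell thinned to 1000 UMIs, which left out 126 and 160 cells, 2.90% (2.50 to 3.34, Clopper-Pearson) of Control and 8.25% (7.47 to 9.08) of Dach1OE sinusoidal ECs had a Bmp4 UMI. Unthinned, the shares were 8.91% and 21.7%. Haematopoietic cells, which stand for the background of free RNA, had 0.256% and 0.233% after thinning, at median depths of 5099 and 5103.5 UMIs against 2906 and 2700.5 in sinusoidal ECs.

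For Bmp2 the EC subtypes fell in another order. Sinusoidal ECs had 25.2 CPM (23.2 to 27.4) in Control and 10.9 CPM (9.34 to 12.7) in Dach1OE, a ratio of −1.21 (−1.47 to −0.96), where 2.59% of genes were past 2-fold downward. Arterial ECs had 44.6 CPM (33.0 to 59.0) and 7.79 CPM (5.40 to 10.9), a ratio of −2.52 (−3.19 to −1.86) beside a background of 4.21%. The intervals of the libraries did not overlap in either subtype. In lymphatic ECs Bmp2 was the highest of any EC subtype, at 133 CPM (94.9 to 181) and 185 CPM (132 to 252), each from 40 UMIs, and the ratio of 0.48 (−0.19 to 1.14) spans 0. Few of these UMIs lay in lymphatic ECs assigned to a sex, where Y-linked cells held 14 in Control and 0 in Dach1OE and Xist cells 5 and 1. Beside Ccl21a and Lyve1, the genes most raised in this gate over other ECs include Slc6a4, P2ry12, Gp5 and Clec1b. Whether the gate takes lymphatic ECs alone was not tested. Metaphyseal ECs and rECs stayed between 4.97 and 13.9 CPM in both libraries. Thinned to 1000 UMIs, 2.53% of Control and 0.957% of Dach1OE sinusoidal ECs had a Bmp2 UMI, against 0.256% and 0.200% of haematopoietic cells. Unthinned, the shares in sinusoidal ECs were 7.52% and 3.11%.

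**Figure D1:**
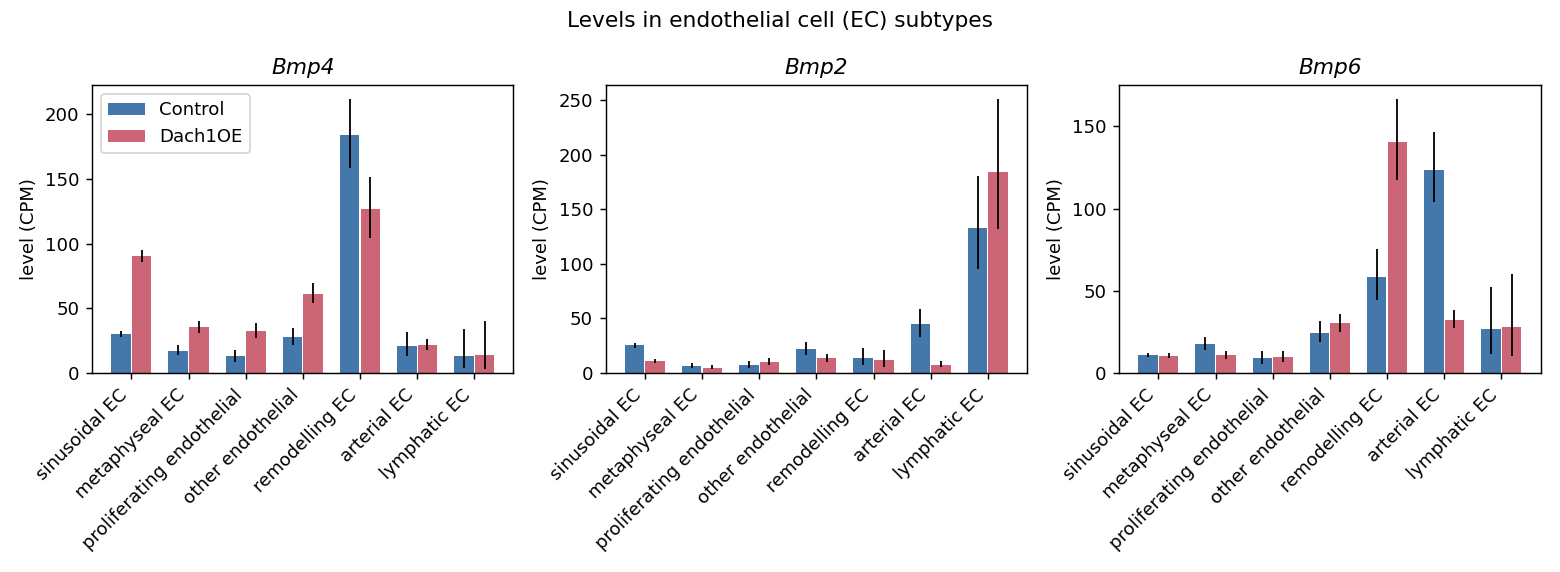
Levels of Bmp4, Bmp2 and Bmp6 in CPM (vertical axes) in 7 EC groups, with Control in blue and Dach1OE in red; bars start at 0 and error bars are exact Poisson 95% intervals. Bmp4 stands at 30.0 and 90.5 CPM in sinusoidal ECs, Bmp2 at 44.6 and 7.79 CPM in arterial ECs, and Bmp6 differs in opposite directions in remodelling and arterial ECs.

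Bmp6, an osteogenic ligand close to Bmp5 and Bmp7, was nearly level over all ECs, at 17.7 CPM (16.3 to 19.1) and 19.0 CPM (17.6 to 20.5). Its class ratio of 0.10 became 0.57 without cells marked as doublets by Scrublet and −0.24 in cells of at least 4000 UMIs. The subtypes within were not level. In rECs Bmp6 had 58.5 CPM (44.5 to 75.5) in Control and 141 CPM (117 to 167) in Dach1OE, a ratio of 1.26 (0.81 to 1.73), where 4.07% of genes were past 2-fold upward. Arterial ECs had 124 CPM (104 to 146) in Control and 32.3 CPM (27.2 to 38.1) in Dach1OE, a ratio of −1.94 (−2.29 to −1.59). The highest EC level was thus in arterial cells in Control and in rECs in Dach1OE. The arterial gate took 320 Control cells and 1216 Dach1OE cells, and the rEC gate 395 and 349, so the arterial populations compared were of unequal size. Sinusoidal ECs had 10.8 and 10.6 CPM of Bmp6.

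Since the libraries pooled male and female mice, cells with Xist and no Y-linked UMI and cells with Y-linked UMIs and no Xist were compared apart. ECs held 3174 Xist and 2381 Y-linked cells in Control and 3201 and 2405 in Dach1OE. The mix was less even between libraries in chondrocytes (2155 and 1222, then 2244 and 2256) and osteoblasts (999 and 450, then 950 and 734). Stromal cells had 1270 and 568, then 513 and 329. Pooled ratios are not adjusted for this, and Chrdl1 lies on the X chromosome. In sinusoidal ECs the Bmp4 ratio was 1.60 (1.37 to 1.84) in Xist cells and 1.55 (1.31 to 1.79) in Y-linked cells. The Bmp2 ratio there was −1.33 (−1.80 to −0.88) and −1.20 (−1.66 to −0.77). For Bmp6 the rEC ratio was 1.32 and 1.85, and the arterial ratio was −1.70 and −3.29. Each of these differences had the same direction in cells of either sex, and the arterial value rests on 52 Y-linked cells in Control. In metaphyseal ECs the Bmp4 ratio was 1.26 (0.64 to 1.93) in Xist cells and 0.58 (−0.09 to 1.30) in Y-linked cells, whose interval spans 0. The same held in proliferating ECs, with 2.13 (1.09 to 3.34) and 0.49 (−0.48 to 1.52), and in ungated ECs, with 0.91 (0.18 to 1.68) and 0.55 (−0.18 to 1.33). Of the proliferating ECs, 31.3% in Control and 24.9% in Dach1OE were marked by Scrublet, a doublet caller.

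**Figure D2:**
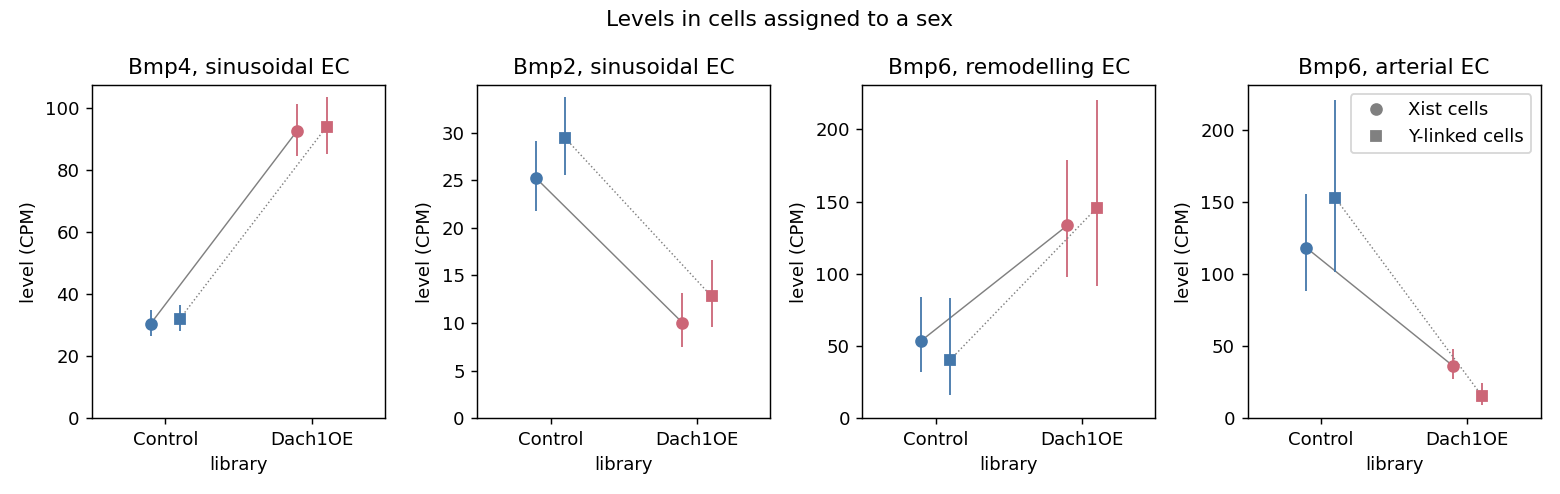
Levels in CPM (vertical axes from 0) of Bmp4 and Bmp2 in sinusoidal ECs and of Bmp6 in remodelling and arterial ECs, by library, with circles for cells assigned by Xist, squares for cells assigned by Y-linked genes, and exact Poisson 95% intervals. The lines join the same sex across the libraries, and both lines run the same way in each panel.

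Within the Dach1OE library, 3916 of 10413 ECs had a Dach1 UMI. In these cells Bmp4 had 74.5 CPM, and in ECs without one 52.6 CPM (log2 ratio 0.50; 0.38 to 0.62). Within sinusoidal ECs the levels were 114 and 72.6 CPM (0.65; 0.50 to 0.80) and within metaphyseal ECs 49.1 and 25.8 CPM (0.93; 0.55 to 1.31). Bmp2 was lower in the Dach1-positive ECs, at 6.46 against 14.1 CPM (−1.12; −1.46 to −0.79). This Bmp2 comparison is over pooled ECs only, and the part of the mix of subtypes in it was not tested. Bmp6 in arterial ECs had 17.3 CPM with and 50.1 CPM without a Dach1 UMI (−1.53; −2.09 to −0.99). The rECs went the other way for Bmp4, with 86.7 CPM in cells with and 146 CPM in cells without a Dach1 UMI (−0.75; −1.44 to −0.11). Among ECs of at least 4000 UMIs the ratios over the class were 0.54 for Bmp4 and −1.30 for Bmp2. Cells without a Dach1 UMI may still express the gene, and cells are not replicates.

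The class values of Bmp4 and Bmp2 depend on how subtypes are weighted. With every EC subtype given equal weight, the log2 ratio of Bmp4 over ECs was 0.32 and that of Bmp2 −0.05, both within 2-fold. The sinusoidal gate alone held 6407 of the 9979 Control ECs and 4756 of the 10413 Dach1OE ECs.

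Over all ECs pooled, the other 8 members had no ratio past 2-fold. Bmp3, Bmp5 and Bmp7 did not exceed 5.65 CPM in ECs of either library, and Nog, which binds BMP ligands with high affinity, had 1.45 and 2.23 CPM. Chrdl1 and Grem1, antagonists of the chordin-like and DAN families, had 15.9 and 7.98 CPM (−0.998; −1.21 to −0.79) and 7.39 and 3.87 CPM (−0.93; −1.24 to −0.63). Both lay just inside 2-fold, and Chrdl1 passed it with TMM scaling (−1.01). Without Scrublet-marked cells the ratios were −0.23 for Chrdl1 and −0.22 for Grem1. Both were highest in stromal cells, and ECs held 2.16 and 2.06 Chrdl1 UMIs per Grem1 UMI where stromal cells held 1.99 and 2.05, against 50.8 and 46.9 in chondrocytes. Of the 9 stromal class markers none was at 0 in ECs, and their summed level was 1001 and 984 CPM, of which Cxcl12 made up most. Of the 9, 5 were lower in Dach1OE ECs and 4 higher, with ratios from −1.13 for Lepr (73.7 and 33.7 CPM) and −1.12 for Adipoq (107 and 49.2 CPM) to 0.48 for Aspn, and Cxcl12 was at 687 and 740 CPM. The part of free stromal RNA in the EC values of Chrdl1 and Grem1 was not tested. The 8 chondrocyte markers summed in ECs to 1140 CPM in Control and 1625 CPM in Dach1OE, beside ratios of 0.61 for Nog and 0.62 for Bmp7, both chondrocyte genes in these data. The part of free chondrocyte RNA in the EC values of Nog and Bmp7 was not tested.

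**Figure D3:**
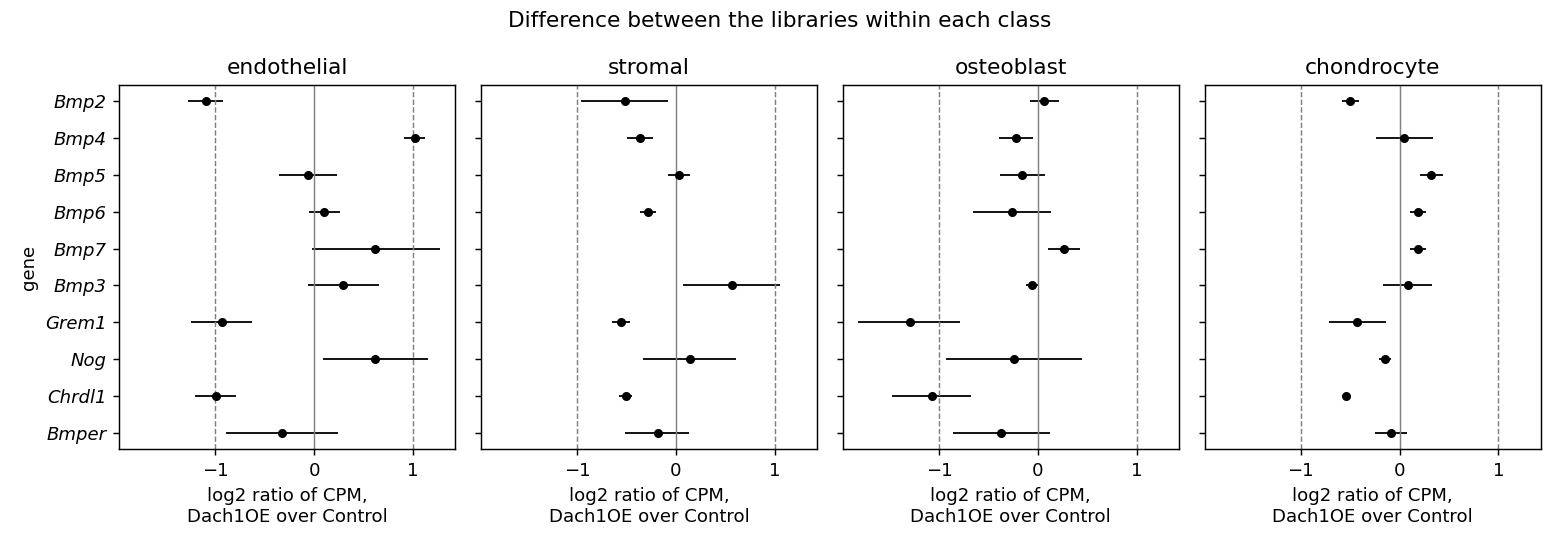
Log2 ratio of CPM, Dach1OE over Control (horizontal axes), of the 10 genes in 4 cell classes, as points with exact binomial 95% intervals; dashed lines mark 2-fold and genes with under 20 UMIs are left out. Bmp4 and Bmp2 stand at 1.02 and −1.10 in ECs, while all points of stromal cells and chondrocytes lie between the dashed lines.

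Stromal cells held the highest class level of Grem1, Chrdl1, Bmp4, Bmp5 and Bmp6, and here no member was past 2-fold, of the 9 with enough UMIs (the background was 1.6% upward and 2.04% downward). Diaphyseal stromal cells, which express Adipoq, Lepr and Cxcl12, held the highest level of Chrdl1, Grem1, Bmp6 and Bmper in both libraries. Chrdl1 had 1019 CPM (997 to 1042) in Control and 860 CPM (828 to 892) in Dach1OE, and Grem1 had 493 CPM (478 to 509) and 386 CPM (365 to 408). Bmp6 had 537 CPM (521 to 553) and 521 CPM (496 to 547), with intervals that overlap. Bmper, a modulator that can hold back or aid BMP4, had 31.0 CPM (27.3 to 35.2) and 31.4 CPM (25.5 to 38.1), overlapping stromal cells that no subtype gate took. Bmp4 had 209 CPM (199 to 219) and 194 CPM (179 to 210), and Bmp5, an osteogenic ligand close to Bmp6 and Bmp7, had 192 CPM (182 to 202) and 225 CPM (209 to 242). Ligands and antagonists were thus both read in the pooled cells of this gate. Pooled levels do not show whether single cells held both.

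Metaphyseal stromal cells, marked by Wif1, Slitrk6 and Aspn, had another set. Bmp5 was present at 180 CPM (158 to 204) in Control and 137 CPM (114 to 162) in Dach1OE, in the range of diaphyseal cells in Control. Bmp4, by contrast, had 7.47 CPM in Control and 1.06 CPM in Dach1OE, from 10 UMIs and 1 UMI, and Chrdl1 had 14.9 and 8.47 CPM. Nog, at 35.1 CPM (25.8 to 46.7) and 36.02 CPM (24.9 to 50.3), and Bmp3, at 37.3 and 40.3 CPM, were higher there than in diaphyseal cells, where Nog had 7.07 and 6.21 CPM and Bmp3 2.02 and 2.48 CPM. The intervals of the subtypes did not overlap for any of these genes but Bmp5 in Control. Grem1 had 67.2 and 44.5 CPM and Bmp6 62.7 and 47.7 CPM in metaphyseal cells.

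Over the whole stromal class the ratios of Grem1 and Chrdl1 were −0.56 (−0.64 to −0.47) and −0.51 (−0.57 to −0.45). Under 16 alternative settings Grem1 ranged from −0.84 in Y-linked cells to −0.13 with equal weights of subtypes. Chrdl1 ranged from −0.84 in Y-linked cells to −0.19 in cells of at least 4000 UMIs. Within diaphyseal cells the ratios of Grem1 and Chrdl1 were −0.36 (−0.45 to −0.26) and −0.25 (−0.31 to −0.18). The diaphyseal gate held 2683 of 3254 Control and 1070 of 1540 Dach1OE stromal cells. Xist and Y-linked cells gave ratios of unequal size. In diaphyseal cells the Grem1 ratio was −0.12 (−0.28 to 0.04) in Xist cells and −0.63 (−0.83 to −0.44) in Y-linked cells, and the Chrdl1 ratio was −0.08 (−0.18 to 0.02) and −0.43 (−0.58 to −0.29). Only the Y-linked cells had intervals clear of 0, and the difference between the sexes was not tested. In all kept cells together, stromal cells supplied 83.9% of Grem1 UMIs in Control and 70.8% in Dach1OE, and 41.6% and 22.1% of Chrdl1 UMIs, of which chondrocytes supplied more, 51.3% and 71.8%. For Bmp4 the stromal share was 43.3% and 15.8%, while the EC share was 27.6% and 54.4%. Of all UMIs, stromal cells supplied 7.28% in Control and 3.09% in Dach1OE, ECs 25.1% and 22.1%, and chondrocytes 33.9% and 38.8%. The shares of a gene therefore also follow how many cells each gate held.

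**Figure D4:**
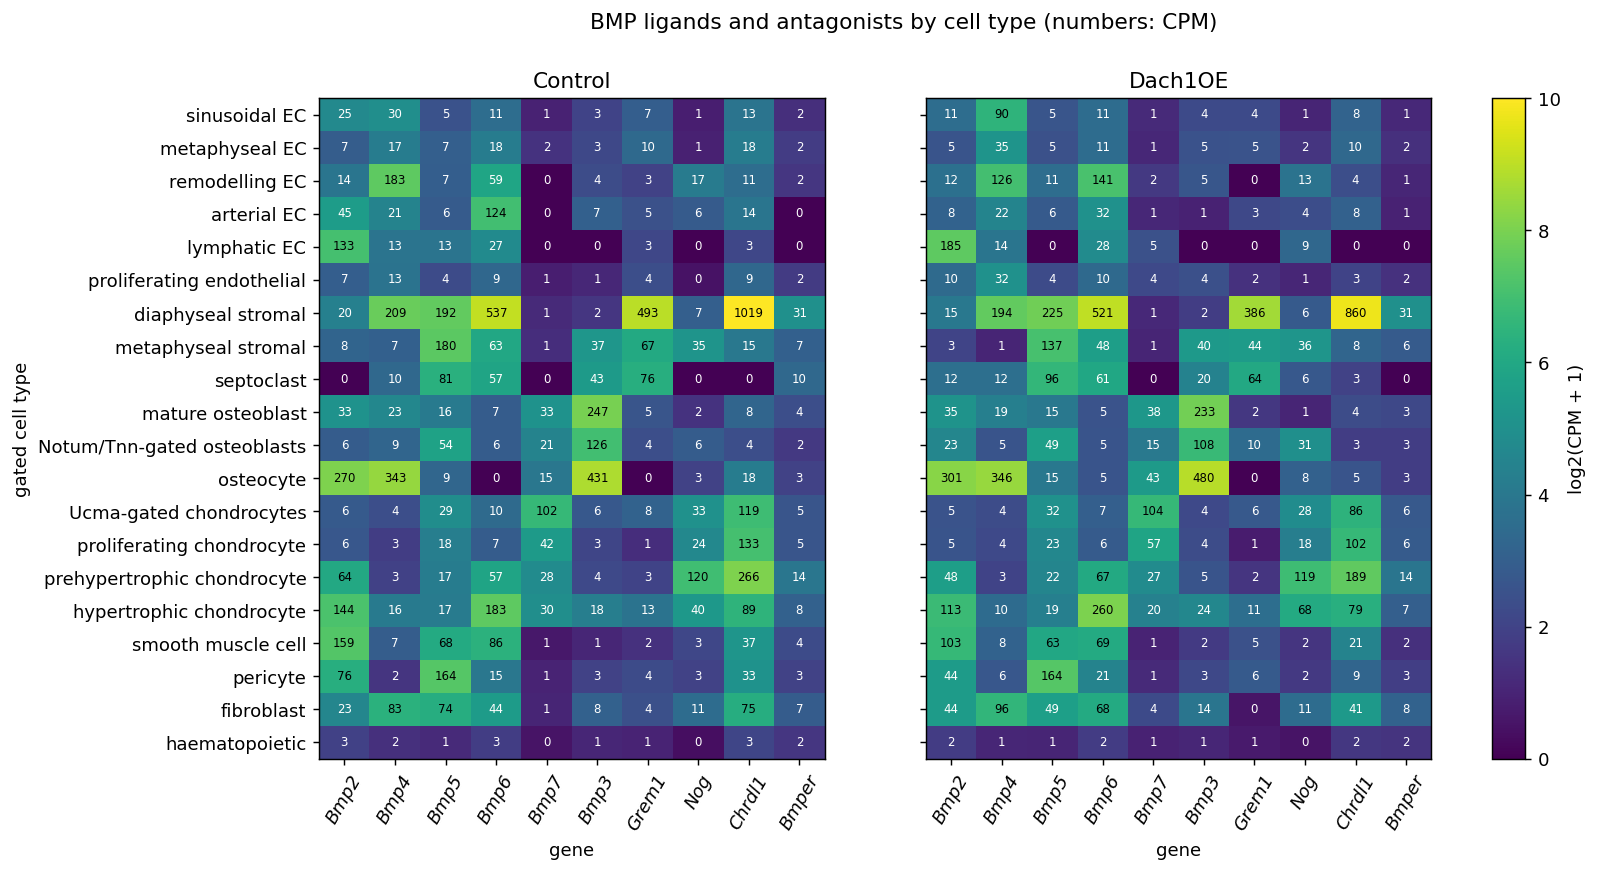
Levels of the 10 genes (columns) in 20 gated cell types (rows) for Control on the left and Dach1OE on the right, coloured by log2(CPM + 1) with the rounded CPM printed in each cell. Grem1, Chrdl1 and Bmp6 peak in diaphyseal stromal cells, Bmp3 in the osteoblast lineage, and Nog and Bmp7 in chondrocytes in both libraries.

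Bmp3, an atypical ligand known to oppose osteogenic BMPs and also called osteogenin, was highest in the osteoblast lineage. Osteoblasts supplied 85.6% and 86.1% of its UMIs in Control and Dach1OE. Mature osteoblasts had 247 CPM (239 to 255) and 233 CPM (226 to 240), and osteocytes, the cells embedded in bone that express Sost and Dmp1, had 431 CPM (364 to 507) and 480 CPM (414 to 554). Notum/Tnn-gated osteoblasts had 126 CPM (96.1 to 163) and 108 CPM (77.6 to 146). The osteocyte interval was above that of mature osteoblasts in both libraries, and the libraries differed little within each type as a whole. In Notum/Tnn-gated osteoblasts assigned to a sex, Bmp3 was higher in Dach1OE, unlike the pooled level. The ratio was 1.14 (0.10 to 2.14) in Xist cells, from 21 and 16 UMIs. Y-linked cells gave 0.61 (−0.68 to 2.03), from 8 and 17 UMIs. After thinning to 1000 UMIs, 20.5% of Control and 20.01% of Dach1OE mature osteoblasts had a Bmp3 UMI, against 0.183% and 0.0667% of haematopoietic cells.

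With all cells of a gate pooled, osteocytes also held the highest Bmp2 and Bmp4 of all gated types. Bmp2 had 270 CPM (218 to 331) in Control and 301 CPM (249 to 360) in Dach1OE, and Bmp4 343 CPM (284 to 411) and 346 CPM (291 to 409). Mature osteoblasts had 33.4 and 34.6 CPM of Bmp2 and 23.5 and 18.9 CPM of Bmp4. These values rest on 61 Control and 72 Dach1OE osteocytes, with 92 and 119 UMIs of Bmp2 and 117 and 137 of Bmp4. In osteocytes assigned to a sex, Bmp4 was not level between the libraries. Xist cells, 17 and 22 in number, had 232 and 491 CPM (1.08; 0.42 to 1.78), and Y-linked cells, 8 and 14 in number, had 78.1 and 299 CPM (1.94; 0.26 to 4.29), the Control values resting on 30 and 3 UMIs. In Control, diaphyseal stromal cells had more Bmp4 than these, at 244 CPM in Xist and 182 CPM in Y-linked cells, with overlapping intervals. The top rank of osteocytes for Bmp4 in Control thus did not hold in cells assigned to a sex. Over pooled cells, osteocytes stood above mature osteoblasts for both ligands in both libraries, while for Bmp2 in Dach1OE their interval met that of lymphatic ECs.

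Between the libraries, Grem1 and Chrdl1 were the 2 members past 2-fold downward in osteoblasts, where 2.71% of genes were, and none was past 2-fold upward, where 0.815% were. Grem1 had 5.71 CPM (4.61 to 6.997) and 2.33 CPM (1.73 to 3.06), a ratio of −1.30 (−1.82 to −0.79), from 93 and 51 UMIs. Chrdl1 had 8.41 CPM (7.06 to 9.95) and 4.02 CPM (3.22 to 4.95), a ratio of −1.07 (−1.47 to −0.67). In haematopoietic cells Grem1 had 1.01 and 0.656 CPM and Chrdl1 3.27 and 2.07 CPM. Of the 9 stromal markers 8 were lower in Dach1OE osteoblasts, and the stromal markers Adipoq and Cxcl12 had ratios of −1.37 and −0.99 in osteoblasts. None of the 9 was at 0 there, and their summed level was 929 and 625 CPM. Its part in the result was not tested. Without the Scrublet-marked cells the ratios were −0.80 for Grem1 and −0.52 for Chrdl1, and neither was past 2-fold, as also under a stricter or looser gate. Bmp7, a ligand used as a bone graft factor, was at 30.3 CPM (27.7 to 33.1) and 36.5 CPM (33.97 to 39.1) in osteoblasts. Its ratio was 0.42 (0.15 to 0.69) in Xist osteoblasts and −0.05 (−0.39 to 0.29) in Y-linked osteoblasts.

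Chondrocytes carried most Nog and Bmp7, with no member past 2-fold over the class (background 0.955% upward and 2.38% downward). Nog, the antagonist that in the growth plate is known to restrain BMP signals, had 93.6% of its UMIs in Control and 94.9% in Dach1OE in chondrocytes. Prehypertrophic cells, which express Ihh, had 120 CPM (116 to 124) and 119 CPM (115 to 122), and hypertrophic cells, marked by Col10a1 and Mmp13, had 39.7 CPM (29.7 to 52.1) and 68.0 CPM (57.9 to 79.3). Ucma-gated cells had 32.5 and 27.9 CPM and proliferating cells 24.4 and 18.3 CPM. Nog therefore peaked at the prehypertrophic gate in both libraries, with an interval clear of every other type.

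Bmp7 was highest in another gate. Ucma-gated chondrocytes had 102 CPM (94.4 to 110) and 104 CPM (98.3 to 110), proliferating chondrocytes 42.3 and 57.0 CPM, prehypertrophic cells 27.6 and 27.2 CPM and hypertrophic cells 29.8 and 20.3 CPM. Bmp6 and Bmp2 were highest in hypertrophic cells among these gates. Bmp6 had 10.01 and 7.19 CPM in Ucma-gated cells, 56.8 and 66.6 CPM in prehypertrophic cells and 183 CPM (161 to 208) and 260 CPM (240 to 281) in hypertrophic cells. Bmp2 had 6.10 and 4.93 CPM, then 64.2 and 48.1 CPM, then 144 CPM (124 to 166) and 113 CPM (100 to 128) at the same gates. For Bmp6 and Bmp2 the intervals of these 3 gates did not overlap in either library, and proliferating cells, at 6.51 and 6.24 CPM of Bmp6 and 5.60 and 4.99 CPM of Bmp2, overlapped Ucma-gated cells in both.

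**Figure D5:**
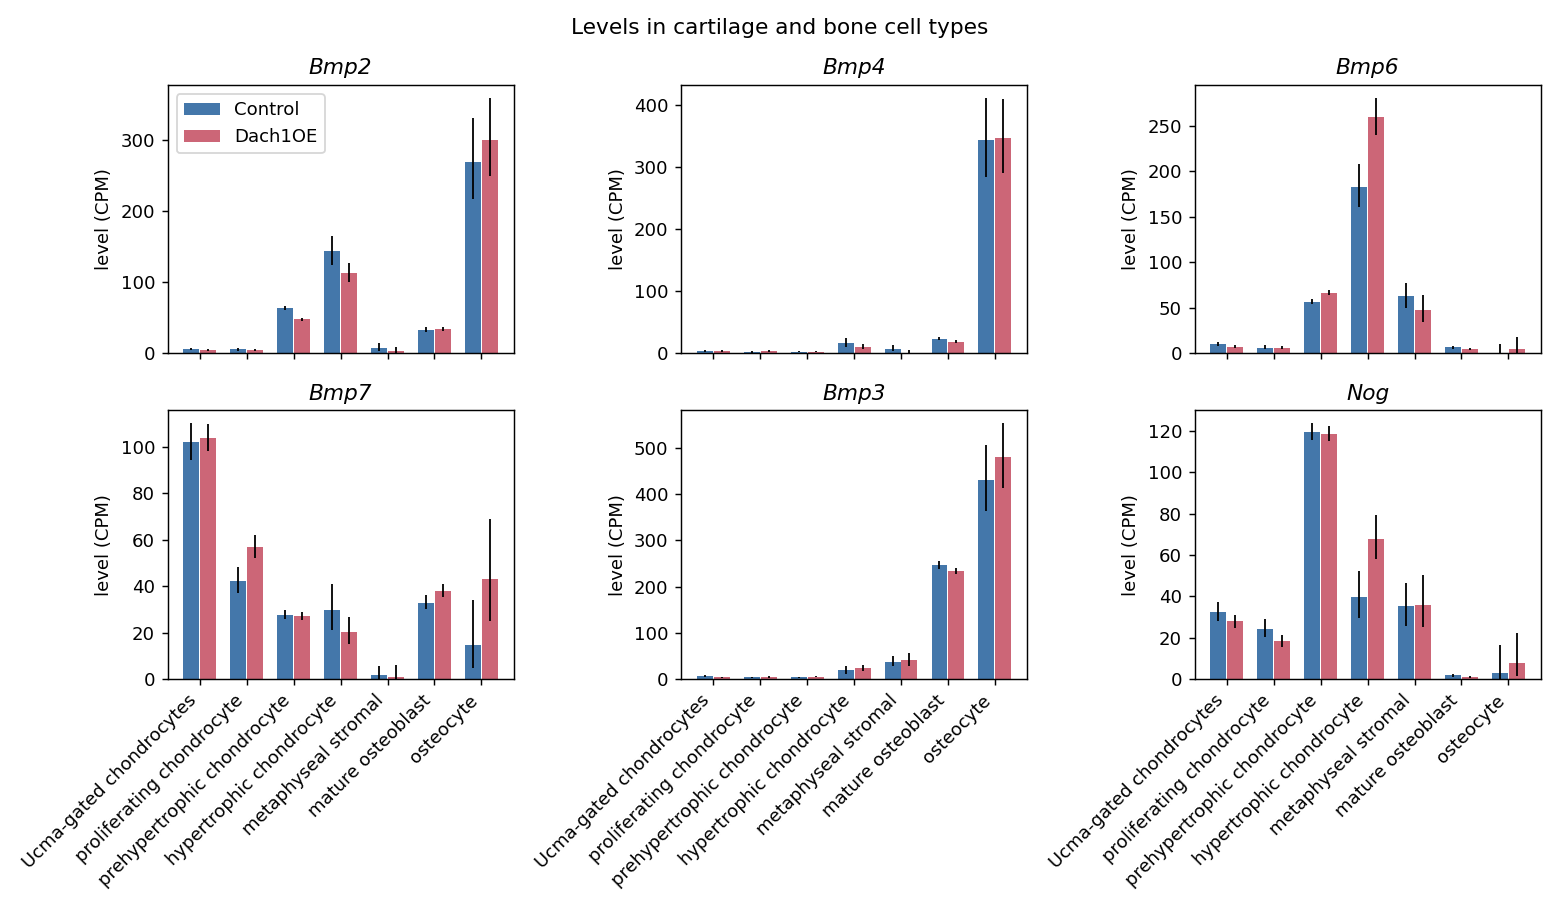
Levels in CPM (vertical axes from 0) of Bmp2, Bmp4, Bmp6, Bmp7, Bmp3 and Nog in 7 cartilage and bone cell types, Control in blue and Dach1OE in red, with exact Poisson 95% intervals. From Ucma-gated to hypertrophic chondrocytes Bmp2 and Bmp6 are higher and Bmp7 lower, Nog peaks at the prehypertrophic gate, and osteocytes lead for Bmp2, Bmp4 and Bmp3.

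Over all chondrocytes the library differences were smaller than 2-fold, but of one direction for Chrdl1. Over the class it had 214 CPM (210 to 218) in Control and 147 CPM (144 to 150) in Dach1OE, a ratio of −0.54 (−0.58 to −0.50). Prehypertrophic cells had 266 CPM (260 to 272) and 189 CPM (184 to 193). Ucma-gated cells had 119 and 86.2 CPM, proliferating cells 133 and 102 CPM and hypertrophic cells 89.4 and 78.5 CPM. The ratio was below 0 in all 4 gates, with an interval that reached 0 in hypertrophic cells alone (−0.19; −0.53 to 0.16), and it was −0.60 in Xist cells and −0.43 in Y-linked cells of the class. Bmp2 in chondrocytes had 48.7 and 34.5 CPM (−0.50; −0.58 to −0.41). Over 16 alternative settings this ratio ranged from −0.68 in Y-linked cells to −0.09 without the 5% of cells with the most UMIs. Within hypertrophic cells Bmp2 differed in opposite directions by sex, at 0.47 (0.06 to 0.89) in Xist cells and −1.51 (−1.94 to −1.08) in Y-linked cells, from Control levels of 123 and 307 CPM, and the difference between the sexes was not tested. In hypertrophic cells Nog and Bmp6 were higher in Dach1OE, at ratios of 0.77 (0.32 to 1.25) and 0.50 (0.28 to 0.72). For Bmp6 both sexes had this direction, at 0.76 (0.45 to 1.08) in Xist and 0.47 (0.05 to 0.91) in Y-linked cells. For Nog the interval of Xist cells spans 0, at 0.49 (−0.23 to 1.23), and the Y-linked value of 1.42 (0.42 to 2.61) rests on 9 UMIs in Control. Bmp5 had 19.7 and 24.6 CPM in the class, a ratio of 0.32 (0.20 to 0.44).

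Of the remaining types, mural cells supplied Bmp2 and Bmp5. Smooth muscle cells had 159 CPM (141 to 178) of Bmp2 in Control and 103 CPM (91.6 to 115) in Dach1OE, with a ratio of −0.41 (−0.96 to 0.16) in Xist cells and −1.10 (−1.68 to −0.53) in Y-linked cells. Pericytes had 164 CPM (140 to 191) and 164 CPM (148 to 181) of Bmp5. Chrdl1 in mural cells had 34.1 and 14.8 CPM, a ratio of −1.20 (−1.61 to −0.80), past 2-fold downward where 1.95% of genes were. Mural cells had a median stromal score of 0.152, and of the 9 stromal markers in them 6 were lower in Dach1OE, 3 higher and none at 0, with ratios from −1.71 for Adipoq to 0.57 for Kitl and a summed level of 1828 and 1822 CPM. Their part in the result was not tested. Fibroblasts had 82.9 CPM (72.8 to 94.0) and 96.0 CPM (83.3 to 110) of Bmp4. In haematopoietic cells no member exceeded 3.27 CPM in either library.

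The order of the gated types was similar in the libraries. Over 26 types Spearman's rho between the libraries ranged from 0.751 for Bmp7 to 0.936 for Bmp5, as a description of libraries that share the gates. The top type was the same in both libraries for 9 of the 10 members. The exception was Bmp5, whose top type was ungated stromal cells in Control (232 CPM, 178 to 297) and diaphyseal stromal cells in Dach1OE, and these overlap with metaphyseal stromal cells in Control. For Bmp2 in Control, smooth muscle, hypertrophic chondrocytes and lymphatic ECs followed the osteocytes with overlapping intervals. For Bmp4 the diaphyseal stromal and rEC intervals overlap in Control and part in Dach1OE.

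Likeness of pattern was given by Pearson's r of log2(CPM + 1) over 52 profiles, 26 types in each library, among 15163 genes. The profiles share libraries and gates, and the values are descriptive. The 3 genes nearest to Bmp3 were Lpar3 (0.948), Metrnl (0.905) and Wisp1 (0.897). Those nearest to Bmp7 were Col11a2 (0.945) and Col11a1 (0.925), cartilage collagen genes, and Pla2g5 (0.909). Nog was most like Sox9 (0.837), the chondrocyte transcription factor, then 1500015O10Rik (0.808) and Capn6 (0.801). For Bmp5 they were 2900097C17Rik (0.910), Arhgef25 (0.902) and Antxr1 (0.899), and for Bmp6 Pam (0.750), Osbpl5 (0.745) and Gas6 (0.733). Grem1 was most like Pappa (0.884), Gdpd2 (0.877) and Kng1 (0.877), Chrdl1 most like Vit (0.786), Serpina3n (0.770) and Slc5a3 (0.765), and Bmper most like BC067074 (0.769), Oat (0.769) and Spon2 (0.757). Bmp4 was most like Gm15222 (0.809), the antisense gene that overlaps it, then Rhobtb1 (0.709) and Sash1 (0.708). Bmp2 was most like Cystm1 (0.827), Gpcpd1 (0.781) and Chmp4c (0.715), of which Gpcpd1 lies 964430 bases from Bmp2 on chromosome 2. Between members the highest value was 0.647, for Chrdl1 and Bmper.

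The pathway around the members was read through 40 genes of receptors, co-receptors, SMADs, targets and other ligands and antagonists, of which 39 were listed. In ECs 33 passed the count minimum, with 3 past 2-fold upward and 3 downward, where 3.44% and 3.3% of all genes tested were. The inhibitory SMAD gene Smad7 had 25.01 and 56.1 CPM (1.17; 1.05 to 1.28), and Fstl3, an activin-binding antagonist, had 1.63 and 5.17 CPM (1.67; 1.24 to 2.12). Id4 had 45.4 and 16.0 CPM (−1.51; −1.65 to −1.37). Gdf5, also past 2-fold upward, had 6 and 15 UMIs, and Gdf6, past it downward, had 22 and 8 UMIs. The other Id genes did not share a direction, since Id1 had a ratio of 0.34 (0.27 to 0.41), Id2 of 0.05 (0.00 to 0.09) and Id3 of −0.19 (−0.22 to −0.16). Among receptors, Bmpr2 had 165 and 111 CPM (−0.57; −0.63 to −0.51), Acvr2a 43.5 and 26.9 CPM (−0.69; −0.81 to −0.57) and Acvrl1, the endothelial type I receptor, 99.96 and 119 CPM (0.25; 0.18 to 0.31). The co-receptor Eng had 470 and 455 CPM, and Acvr1, Acvr2b, Bmpr1a, Bmpr1b, Rgma and Rgmb had ratios between −0.41 and 0.24.

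In stromal cells, osteoblasts and chondrocytes none of the 31, 32 and 35 pathway genes with enough UMIs was past 2-fold, where 1.6%, 0.815% and 0.955% of all genes tested were upward and 2.04%, 2.71% and 2.38% downward. The Id genes there lay between −0.59 (Id4 in osteoblasts) and 0.17 (Id2 in stromal cells). Bmpr1a, the type I receptor of BMP2 and BMP4, had 122 and 122 CPM in stromal cells, 65.2 and 68.7 CPM in osteoblasts and 88.4 and 95.5 CPM in chondrocytes. Pooled by class, the members and the genes around them thus differed by less than 2-fold here, apart from Grem1 and Chrdl1 in osteoblasts. Some subtypes within these classes did not share this. In osteocytes 1 of 4 members with enough UMIs was past 2-fold upward, and in ungated osteoblasts 2 of 6. Proliferating osteoblasts had 1 upward and 1 downward of 5, and ungated chondrocytes 1 downward of 10. Pathway genes were past it in further gates. The share of all genes past 2-fold in these gates is not given, so these counts are not read as a result about the members.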

How the data were processed

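Counts of UMIs and reads per cell and gene were made by the authors with BD's Rhapsody WTA pipeline (1.11 per the file headers; the methods name another version) on GRCm38 with GENCODE vM19, mm10 in the submitters' processing notes. Intronic reads were counted, and the deposited tables list only values above 0. Here the RSEC-adjusted UMIs of cells with 500 to 6000 genes and under 25% mitochondrial UMIs were used.

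Cells were gated by scores, the mean over a class's markers of the log-normalised level divided by its 0.9 quantile in positive cells and capped at 1. A class needed a score of 0.1 and a margin of 0.05 over the next, and subtypes were gated alike within a class; proliferating cells needed a score of 0.3. The endothelial subtype gates use genes that may themselves respond to Dach1. Within 0.02 of that margin lay 62 Control and 75 Dach1OE endothelial, 113 and 94 stromal, 100 and 70 osteoblast and 43 and 83 chondrocyte cells. Cells that met no class (1550 and 1840) were set aside. Doublets were not removed. Scrublet (scanpy 1.11.5) marked 6.53% and 6.60% of cells, and leaving these out was an alternative. Types with under 50 cells in a library were left out, which removed tip-like ECs (48 Control cells) and proliferating stromal and mural cells.

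UMIs were summed per library and type. Intervals were computed with scipy 1.17.1 and checked on simulated data. TMM factors came from edgeR 4.0.16. The floor for a count of 0 was 3 counts. The members and lists were chosen with earlier results of these data known. All 10 members are named. Pathway genes are named where past 2-fold in a class, at most 6 by size, or where an Id gene, receptor or co-receptor; 1 pathway gene past 2-fold in ECs and 1 gate marker are not reported here. For each member the 3 genes most like it by Pearson's r are named. Coordinates are 1-based, from GENCODE vM21 on GRCm38. Whether cells of 1 sex come from 1 mouse was not given in the sources used here.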

Additional observations from a re-analysis of the deposited data

Results flagged for a closer look

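Bmp6 stood out because it differed between the libraries in opposite directions in a pair of EC subtypes. In remodelling ECs its log2 ratio, Dach1OE over Control, was 1.26 (0.81 to 1.73, from 59 and 130 UMIs), and in arterial ECs it was −1.94 (−2.29 to −1.59, from 136 and 141 UMIs). Each subtype gives a single ratio, since there was 1 library per group, and the difference between the subtypes was not tested.

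Among cells assigned to a sex, 3 members in chondrocyte gates had ratios of opposite direction in Xist and Y-linked cells, with both intervals clear of 0. For Bmp2 in hypertrophic cells the ratio was 0.47 (0.06 to 0.89) in Xist cells and −1.51 (−1.94 to −1.08) in Y-linked cells. For Grem1 in Ucma-gated cells Xist cells gave 1.07 (0.22 to 1.98) on 17 Control and 40 Dach1OE UMIs, and Y-linked cells gave −2.31 (−3.53 to −1.16) on 19 and 11. For Bmp6 in chondrocytes that no subtype gate took Xist cells gave −0.42 (−0.81 to −0.03) on 135 and 94 UMIs, and Y-linked cells 1.504 (0.98 to 2.06) on 36 and 181. These 3 cases were picked from all members and gated types compared by sex. The share of all genes with such a pattern is not given, so this count is not read as a result about the members. The differences between the sexes were not tested, since the libraries hold 1 pool each.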

How the results depend on the processing

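The ratios of members in the 4 classes were recomputed under 16 alternatives, 1 of them (cells of at least 4000 UMIs) chosen after seeing the data. Of their values 538 stayed within the counting interval, 83 moved by more, and no ratio past 2-fold in the main setting changed direction. In ECs, where 1 member was past 2-fold in each direction, the number lower in Dach1OE was 2 with TMM scaling, without the 20 most abundant genes, at 1000 to 6000 genes, with the looser gate, with equal weights of subtypes and at 4000 UMIs, and 3 in Y-linked cells. With the looser gate and equal weights these were Grem1 (−1.01 and −1.29) and Chrdl1 (−1.07 and −1.39), not Bmp2 (−0.97 and −0.05). The number higher was 0 without the 20 most abundant genes, with the looser gate and at 4000 UMIs, where Bmp4 had ratios of 0.999, 0.99 and 0.96, and 2 under 10% mitochondrial UMIs, with Nog. With equal weights and in Y-linked cells it was 1, but the member was Bmp7 (1.70) and Bmp3 (1.42), not Bmp4 (0.32 and 0.96). Bmp4 was past 2-fold in 11 of the 16 alternatives (0.32 to 1.16) and Bmp2 in 14 (−1.37 to −0.05). In osteoblasts the number lower, 2 as reported, was 1 with TMM scaling, with equal weights and without proliferating cells, and 0 with the stricter gate, with the looser gate and without Scrublet-marked cells. The number higher in osteoblasts was 1 with equal weights instead of 0, namely Nog, at 1.10 against −0.24 in the main setting. In stromal cells the number higher was 1 under 10% mitochondrial UMIs instead of 0. The causes were not tested. TMM scaling shifted every ratio by −0.01 in ECs and by 0.09 in osteoblasts. No paired analysis was possible because each group had 1 library.

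Types with few cells, such as osteocytes and lymphatic ECs, have wide intervals, and a difference between mice cannot be told apart from one between genotypes.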
